A study of Mus musculus with 4 samples.

Results

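At 10 weeks after transplantation, the transcripts of 10 neutrophil genes were measured in single mouse bone marrow cells isolated as CD45.2+Kit+. The genes were Ltf, Camp, Ngp, Lcn2, Chil3, Fcnb, Cd177, Pglyrp1, Abca13 and Retnlg, taken by symbol from the 32285 genes of the count matrices. Each symbol matched 1 row, and all 10 were counted in every library. CD45.2 is an allelic form of CD45, commonly used to follow donor cells. Kit (CD117) is the receptor for stem cell factor on early blood cells. RNA and barcoded antibodies were counted together (CITE-seq), with 10x Genomics 3′ chemistry. The groups were control (library name wt), Mll3SI (mll3KI), Mll4SI (mll4KI) and Mll3/4SI (dKI), with 1 library each. MLL3 and MLL4 are histone H3 lysine methyltransferases encoded by Kmt2c and Kmt2d. The labels do not spell out SI, and they give no strain, donor number, recipient, or sex of the cells. With 1 library per group no difference had a replicate check and no test was run. Intervals in square brackets are exact 95% intervals that cover counting error only.

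Neutrophils build their granules in order as they mature in the marrow. Promyelocytes fill primary granules with proteases and myeloperoxidase, myelocytes then fill secondary (specific) granules with antimicrobial and iron-binding proteins, and later cells add gelatinase granules and surface receptors. The switch to secondary granule genes depends on the transcription factor C/EBP epsilon. In the gene set, Ltf encodes lactoferrin, which binds iron. Camp encodes the antimicrobial peptide cathelicidin, and Ngp encodes neutrophilic granule protein, a relative of the cathelicidin and cystatin families. Lcn2 encodes lipocalin 2, which binds bacterial siderophores. Fcnb encodes ficolin B, a recognition molecule of complement, and Pglyrp1 encodes a peptidoglycan recognition protein. Cd177 encodes a surface and granule protein of neutrophils, Chil3 the chitinase-like protein Ym1, Abca13 a very large ABC transporter, and Retnlg resistin-like gamma, a gene of late neutrophils.

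In GRCm38 the genes lie on 6 chromosomes. Ltf (ENSMUSG00000032496, chr9:111019271-111042767), Ngp (ENSMUSG00000032484, chr9:110419747-110423012) and Camp (ENSMUSG00000038357, chr9:109847379-109849617) follow each other on chromosome 9, with 596 kb between Ltf and Ngp and 570 kb between Ngp and Camp. Lcn2 (ENSMUSG00000026822, chr2:32384633-32388252) and Fcnb (ENSMUSG00000026835, chr2:28076378-28084885) are on chromosome 2. Cd177 (ENSMUSG00000052212, chr7:24743983-24760311) and Pglyrp1 (ENSMUSG00000030413, chr7:18871331-18890459) are on chromosome 7. Chil3 (ENSMUSG00000040809) is at chr3:106147554-106167564, Abca13 (ENSMUSG00000004668) at chr11:9191942-9684259 and Retnlg (ENSMUSG00000022651) at chr16:48872621-48874496. All are protein coding in the GENCODE annotation. Chil3 has a close relative, Chil4, that can share reads with it, but Chil4 was counted at 0.168 to 0.497 CPM in granulocyte-like cells against at least 2234 CPM for Chil3.

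Promoter sequences from RefSeq (GRCm38.p6) were searched in the 250 bases before each start, on both strands, for a C/EBP-type motif (TTGCNNAA) and an ETS-type motif (GAGGAA). The C/EBP-type letters were in 5 of the 10 windows (Ltf, Ngp, Lcn2, Fcnb and Retnlg), and in 9.56% of 32851 promoters. The ETS-type letters were in 4 of 10 (Ltf, Lcn2, Cd177 and Pglyrp1), and in 23.3% of all promoters. Chil3, Abca13 and Camp held neither. The windows of 5 genes are shown. Ngp was retained in a group of Mll3/4SI cells described below, Fcnb was lower there by less than 2-fold, and Chil3, Abca13 and Retnlg were low there. Motif letters are in capitals, and bases inside the annotated gene are left out.
Ngp promoter, chr9:110419558-110419746, plus strand: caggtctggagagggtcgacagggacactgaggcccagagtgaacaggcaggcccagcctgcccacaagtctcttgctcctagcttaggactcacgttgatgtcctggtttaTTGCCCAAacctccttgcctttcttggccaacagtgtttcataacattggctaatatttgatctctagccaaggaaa
Fcnb promoter, chr2:28084886-28085128, minus strand: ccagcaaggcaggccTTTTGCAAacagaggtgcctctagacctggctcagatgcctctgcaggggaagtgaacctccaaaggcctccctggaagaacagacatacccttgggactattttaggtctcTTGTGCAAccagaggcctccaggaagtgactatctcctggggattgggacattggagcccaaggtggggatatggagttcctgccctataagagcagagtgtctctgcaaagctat
Chil3 promoter, chr3:106167565-106167814, minus strand: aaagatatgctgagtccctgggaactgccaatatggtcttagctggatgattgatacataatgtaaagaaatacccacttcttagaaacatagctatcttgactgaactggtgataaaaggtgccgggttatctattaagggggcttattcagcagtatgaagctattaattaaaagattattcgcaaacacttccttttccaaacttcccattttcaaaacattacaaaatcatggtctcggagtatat
Abca13 promoter, chr11:9191692-9191941, plus strand: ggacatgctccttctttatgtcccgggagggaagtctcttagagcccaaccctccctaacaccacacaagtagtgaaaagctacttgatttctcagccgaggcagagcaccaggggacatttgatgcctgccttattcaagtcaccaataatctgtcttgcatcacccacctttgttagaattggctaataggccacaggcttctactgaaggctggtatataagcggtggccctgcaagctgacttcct
Retnlg promoter, chr16:48872358-48872607, plus strand: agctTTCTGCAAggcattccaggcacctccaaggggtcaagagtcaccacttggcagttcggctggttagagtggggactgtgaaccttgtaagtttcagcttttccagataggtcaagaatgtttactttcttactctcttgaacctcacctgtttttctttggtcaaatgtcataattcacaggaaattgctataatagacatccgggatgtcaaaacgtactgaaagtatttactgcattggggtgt
A match of these letters is a description and not a mapped binding site. Of the genes at least 2-fold lower in that group, Retnlg and Ltf held a C/EBP-type match and Chil3, Abca13 and Cd177 did not. Of the retained genes, Ngp and Lcn2 held a match and Camp and Pglyrp1 did not, so these letters did not separate the low from the retained genes.

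The libraries held 7524 to 11678 cell barcodes, of which 31707 cells were kept in all, with a median of 12800 to 19185 gene UMIs (unique molecular identifiers) per cell. Pairs of libraries shared 11 to 21 kept barcodes, at most 0.311% of a library. The targeted genes were transcribed in every library, Kmt2c at 110.3 to 147.4 CPM and Kmt2d at 33.3 to 41.3 CPM (CPM, counts per 1000000 gene UMIs of the summed cells). Control and Mll3SI had almost no Xist (0.0315 and 0.194 CPM), while Mll4SI and Mll3/4SI had 1148 and 1360 CPM of it, so the latter libraries differed from control in sex-linked transcripts as well as in label. Clustering without the 10 genes gave 29 clusters, 14 of them granulocyte-like by other markers. Granulocyte-like cells made up 57.0 to 72.4% of each library (58.5% in control). Clusters 13 and 17 are counted apart as unnamed, because too few markers outside the 10 genes marked them. In control the CD117 (Kit) antibody made up a median 16.7% of antibody UMIs in cluster 4, 2.36% in cluster 0 and 0.591% in cluster 14. The antibody Gr1, which binds Ly6G and Ly6C, made up 2.43%, 46.7% and 83.6% in the same clusters. A larger Gr1 share lowers the other shares, so the amount of Kit protein per cell cannot be read from these values. Different clusters held the granulocyte-like cells of different libraries. Cluster 0 held 20.4% of control cells, 18.4% of Mll3SI cells and 10.6% of Mll3/4SI cells. Clusters 1 and 3 were almost wholly Mll4SI (26.3% and 19.2% of its cells), and clusters 12 and 15 almost wholly Mll3/4SI (15.9% and 13.7%).

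The genes were abundant in control granulocyte-like cells. Camp and Ngp led with 47304 and 18707 CPM, followed by Chil3 (8118 CPM), Lcn2 (7669 CPM) and Ltf (5143 CPM). Pglyrp1 stood at 1175 CPM, Cd177 at 591 CPM, Fcnb at 538 CPM, Abca13 at 481 CPM and Retnlg at 98.5 CPM. These are shares of UMIs counted at transcript 3′ ends, so they do not scale with gene length. Counting intervals were narrow throughout: that of Retnlg in control, the gene with the fewest UMIs, ran from 96.1 to 100.8 CPM. Of the granulocyte-like cells thinned to 3000 UMIs, 73.9% of control cells carried at least 8 of the 10 genes. The Mll3SI share was 65.8%, the Mll4SI share 78.1% and the Mll3/4SI share 38.5%. Thinning left out 11, 20, 63 and 14 shallower cells, and before it the shares were 81.4, 72.7, 89.99 and 47.3% in the same order.

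Outside granulocyte-like cells the genes were read against erythroid-like cells, a class that should not make them. In control the pooled erythroid-like level, the summed UMIs of the class as CPM, was 0.670 to 0.968% of the granulocyte-like level for all 10 genes, an almost constant fraction for genes whose own levels spanned 98.5 to 47304 CPM. The fraction in Mll3SI was 0.602 to 2.19%. That in Mll4SI was 3.62 to 7.45%, and that in Mll3/4SI 0.245 to 0.555%. These pooled levels rested in part on a few cells. In Mll4SI the richest 5% of erythroid-like cells (12 of 222) held 78.5% of the UMIs of the 10 genes, against 43.1% in control, 65.5% in Mll3SI and 12.99% in Mll3/4SI. In Mll4SI the 10 genes together stood at 5851 CPM in the pooled cells but at 715.5 CPM in the median cell, and in control at 680.9 and 459.6 CPM. The median cells of the libraries thus lay closer together, with Mll4SI at 1.56 times control. After thinning, 7.76% of Mll4SI erythroid-like cells (17 of 219) and 0.248% of control ones carried at least 5 of the 10 genes. The pooled level is therefore not a measure of free RNA alone, and what the rich cells are was not tested. The erythroid-like cells themselves lay in 1 cluster that also carried 9 stem cell markers.

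**Figure D1:**
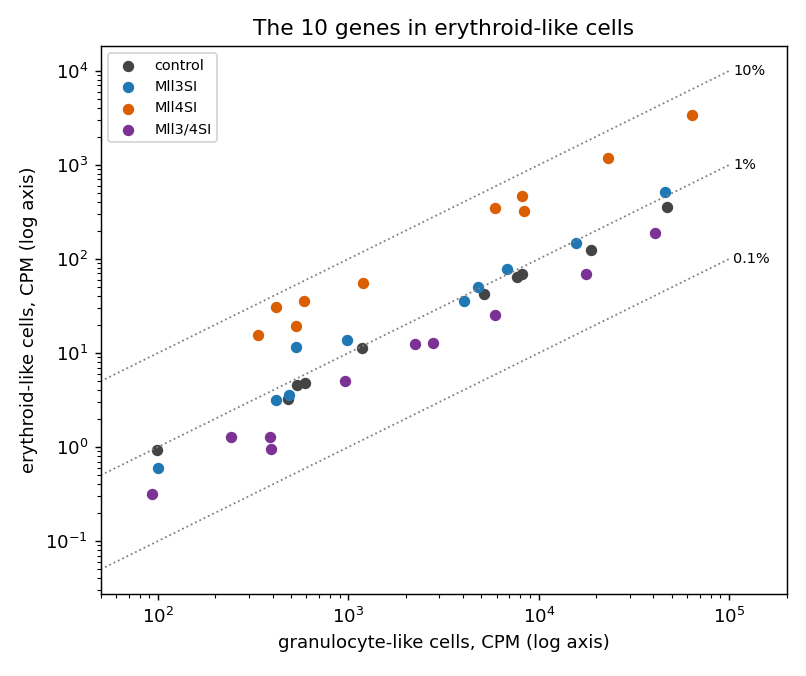
CPM of each of the 10 genes in erythroid-like cells (vertical, log axis) against CPM in granulocyte-like cells (horizontal, log axis), coloured by library, both from pooled cells, with dotted lines at 0.1, 1 and 10% of the granulocyte-like level. Within a library the points lie near 1 line, highest in Mll4SI (3.62 to 7.45%) and lowest in Mll3/4SI (0.245 to 0.555%).

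In HSC/MPP-like cells, the class of stem cells and multipotent progenitors, taken without the Mll3/4SI cluster 16, 9 of the 10 genes were at least 2-fold higher in Mll4SI than in control, with a median log2 ratio of 2.08, where 1.56% of 12508 genes were that much higher and 1.18% lower. The erythroid-like cells of that library had a median log2 ratio of 2.76. For all 10 genes the level in the Mll4SI HSC/MPP-like cells (cluster 16 included) was 0.482 to 0.773 times the pooled erythroid-like one. Here too few cells held most of the transcript: the richest 5% of Mll4SI HSC/MPP-like cells held 80.8% of the UMIs of the 10 genes (21.3% in control), and the median cell, at 596.9 CPM, was 1.32 times the control one. In Mll4SI, Camp stood at 1713 CPM in those HSC/MPP-like cells and 3358 CPM in erythroid-like cells, and Ltf at 197.6 and 348.8 CPM. In Mll3SI, Abca13 alone was 2-fold higher (6.87 CPM, log2 ratio 1.02, with 0.296% of all genes that much higher and 0.352% lower), and in Mll3/4SI, Chil3 alone was 2-fold lower (19.4 CPM, -1.36, with 0.704% of all genes lower and 0.791% higher). With cluster 16 included, Chil3 was at 0.750 times the pooled erythroid-like level in control and 1.45 times in Mll3/4SI. The erythroid-like level itself was 68.7 CPM in control and 12.4 CPM in Mll3/4SI.

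In Mll4SI monocyte-like cells 7 of the 10 genes were at least 2-fold higher than in control (Ltf, Camp, Ngp, Lcn2, Chil3, Cd177 and Retnlg), with a median log2 ratio of 1.78, where 1.41% of 11858 genes were 2-fold higher and 0.759% lower. Those 7 genes stood at 0.281 to 0.554 times the pooled erythroid-like level of Mll4SI. After thinning, 5.04% of Mll4SI monocyte-like cells (46 of 912) carried at least 5 of the 10 genes, against 0 of 750 in control (at most 0.491% by the exact interval). The richest 5% of the Mll4SI cells held 80.5% of these UMIs, and the median cell (561.7 CPM) was 1.34 times the control one. In Mll3SI, Camp alone was 2-fold higher (421.6 CPM, 1.10, with 0.219% of all genes higher and 0.236% lower), at 0.812 times the pooled erythroid-like level. In Mll3/4SI, Chil3 alone was 2-fold lower (19.2 against 85.4 CPM, -2.09, with 0.464% of all genes lower and 0.81% higher), at 1.24 times the pooled erythroid-like level in control and 1.55 times in Mll3/4SI.

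Many genes exceeded the pooled erythroid-like level outside granulocyte-like cells. In Mll3/4SI every gene of the set did so in HSC/MPP-like cells (1.45 to 4.65 times, cluster 16 included). Every gene also did so in Mll3/4SI monocyte-like cells (1.03 to 8.17 times). In control, all but Abca13 exceeded it in basophil/mast-like cells, and all but Retnlg in B-lymphoid-like cells. In HSC/MPP-like cells, all but Pglyrp1 lay below it in control, and every gene did in Mll4SI. Pglyrp1 was the clearest case, with 129.1 CPM in control and 240.9 CPM in Mll3/4SI T/NK-like cells. Erythroid-like cells of the same libraries had 11.4 and 5.09 CPM, although these T/NK-like classes held 24 and 47 cells. In control HSC/MPP-like cells Pglyrp1 was at 2.50 times the erythroid-like level. In control monocyte-like cells Fcnb was at 2.81 times and Abca13 at 2.74 times the erythroid-like level, while Ltf, Camp and Ngp were at 0.537 to 0.571 times.

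Within the granulocyte-like cells the genes differed in the clusters that held them. The clusters richest in primary granule genes (4 and 11, led by Elane, Prtn3 and Ctsg) held little of most of the genes: in control cluster 4, Ltf was at 31.6 CPM, Ngp at 83.2 CPM and Cd177 at 3.57 CPM, at 0.752, 0.663 and 0.749 times the pooled erythroid-like level. Fcnb, Pglyrp1 and Abca13 were already present there. Fcnb stood at 67.3 CPM, Pglyrp1 at 169.6 CPM and Abca13 at 54.3 CPM, which were 14.9, 14.9 and 16.7 times the erythroid-like level. Chil3 in control cluster 11 (166.7 CPM) was at 2.42 times that level.

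Fcnb and Retnlg marked opposite ends. In control, Fcnb peaked in clusters 17 (2058 CPM) and 13 (1596 CPM), was at 598 CPM in cluster 0 and at 16.01 CPM in cluster 14. Retnlg ran the other way, from 39.9 CPM in cluster 17 and 49.98 CPM in cluster 0 to 10252 CPM in cluster 14. Other leading genes of cluster 14 included the collagenase gene Mmp8 and the gelatinase gene Mmp9. Camp was at 69990 CPM in cluster 17, 68583 CPM in cluster 0 and 32576 CPM in cluster 14, and Chil3 was at 9776, 11605 and 3151 CPM in the same order. Ltf was at 2673, 7257 and 9852 CPM, and Cd177 at 349.3, 862 and 1059 CPM. Pglyrp1 varied least over the control late clusters, from 1537 to 1971 CPM. Late clusters here are the granulocyte-like clusters outside 4, 11 and 15, together with clusters 13 and 17. As a description over 42 cluster and library units, which share libraries and depth, log2 levels of Ngp and Lcn2 correlated most (Pearson's r 0.996) and those of Fcnb and Retnlg least (0.542).

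**Figure D2:**
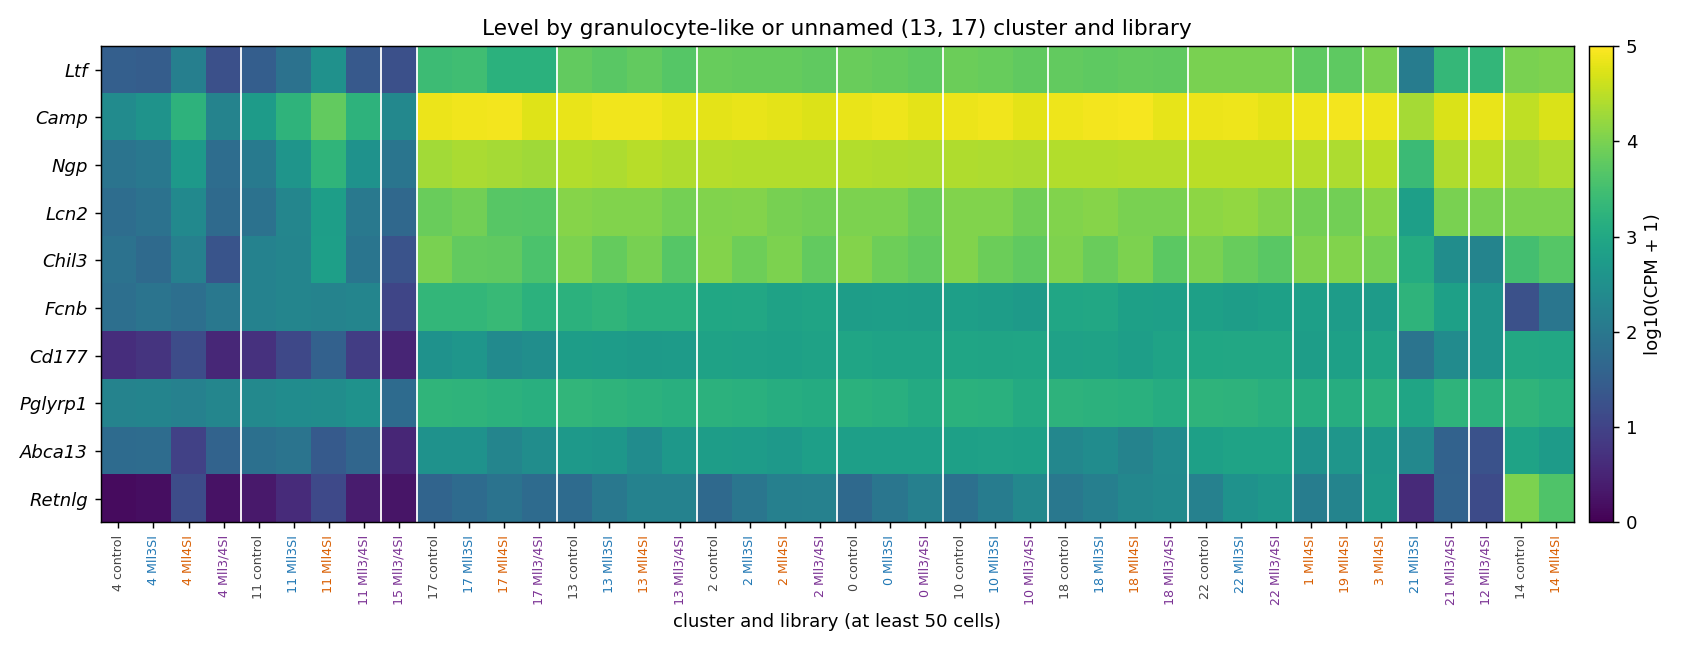
Log10 of CPM + 1 of the 10 genes (rows) in each granulocyte-like or unnamed cluster with at least 50 cells of a library (columns, cluster number and library, library by text colour). Clusters 4, 11 and 15 are dark for most genes, Fcnb is dark and Retnlg bright in cluster 14, and Chil3, Abca13 and Retnlg are dark in cluster 12.

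Retnlg was also the most unevenly spread. In control the 1% of cells richest in Retnlg held 57.8% of its UMIs, against 4.47 to 8.85% for the other 9 genes. Control cluster 14, with 0.905% of the cells (61 cells), held 55.3% of the Retnlg UMIs. In Mll4SI cluster 14 held 8.12% of cells (827 cells) and 53.2% of the Retnlg UMIs.

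Cluster 23, with 390 cells of low UMI content (median 1529), had another mix of these genes. In its control cells Ltf (8955 CPM) and Abca13 (1875 CPM) were 1.23 and 2.77 times their cluster 0 level, whereas Camp (7673 CPM) was 8.94-fold lower, Pglyrp1 7.20-fold lower and Lcn2 5.62-fold lower. The pattern was similar in the other libraries, with Abca13 at 1313 to 1868 CPM and Camp at 7183 to 11708 CPM.

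The first comparison was Mll3SI with control in granulocyte-like cells. The genes were slightly lower, with a median log2 ratio of CPM + 1 of -0.23 over the 10 genes against 0.02 over 11577 genes, and 9 of 10 lower. Chil3 differed most, at 4801 CPM against 8118 CPM (log2 ratio -0.76 [-0.76 to -0.75]). Ltf was at 4036 against 5143 CPM (-0.35), Cd177 at 486 against 591 CPM (-0.28), Ngp at 15636 against 18707 CPM (-0.26), Pglyrp1 at 983 against 1175 CPM (-0.26) and Abca13 at 418.5 against 481 CPM (-0.20). Lcn2 (6812 CPM, -0.17), Camp (45863 CPM, -0.04), Fcnb (529.4 CPM, -0.02) and Retnlg (100.01 CPM, 0.02) were close to control. No gene of the 10 was 2-fold lower or higher, where 0.311% of all genes were 2-fold lower and 0.225% 2-fold higher. Clusters 4 and 11, which held little of most of these genes, made up 9.52% and 6.27% of Mll3SI cells. In control they made up 7.74% and 4.00%. Without clusters 4, 11 and 15, a setting chosen after seeing the data, Chil3 was at -0.58. The other genes then lay between -0.17 (Ltf) and 0.20 (Retnlg).

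**Figure D3:**
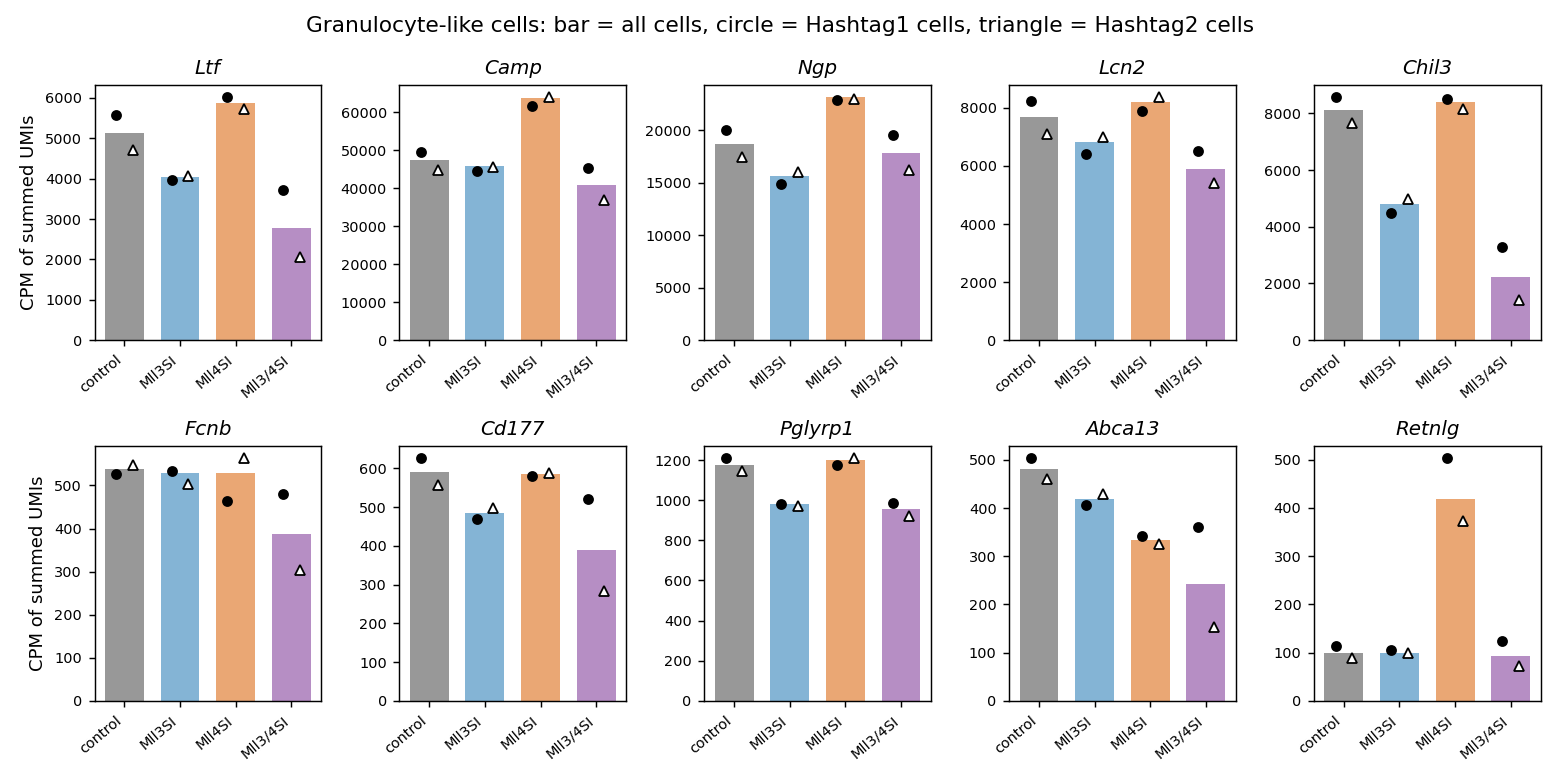
CPM of each gene in granulocyte-like cells by library (bars, all cells), with the cells of Hashtag1 (circles) and Hashtag2 (triangles) shown apart. Chil3 is lower in Mll3SI and lowest in Mll3/4SI, and Retnlg is highest in Mll4SI (418 CPM).

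Each library held cells of a pair of hashtags, antibodies that tag pooled samples. The labels do not say what they marked, so they are shown as a split of the library and not as replicates. The hashtag values are over all granulocyte-like cells, clusters 4 and 11 included. In Mll3SI, 7 of the 10 genes had both hashtag values below both control values (Ltf, Ngp, Lcn2, Chil3, Cd177, Pglyrp1 and Abca13), where 25.6% of all genes did. None had both values above, where 34.4% of all genes did. Chil3 stood at 4483 and 4967 CPM in the Mll3SI hashtags and at 8571 and 7665 CPM in the control hashtags.

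Within shared late clusters Chil3 and Retnlg were the genes of the 10 that differed most from control in Mll3SI, although Retnlg was level with control over all granulocyte-like cells (0.02). Cells that share a cluster can still differ in stage, which was not tested. The 7 late clusters with at least 50 cells of both libraries were 0, 2, 10, 13, 17, 18 and 22. Cluster 14, which held 55.3% of the control Retnlg UMIs, was left out because it had 27 Mll3SI cells. In the 7 clusters, Chil3 was lower in 7 of 7, with log2 ratios from -0.65 to -0.49, and Retnlg was higher in 7 of 7, from 0.43 to 1.13. Chil3 was at 7812 CPM in Mll3SI cluster 0 and 11605 CPM in control cluster 0, and Retnlg was at 91.4 and 49.98 CPM. Camp was also higher in all 7 (0.08 to 0.17) and Pglyrp1 lower in all 7 (-0.14 to -0.06), by small amounts. Of all genes, 4.28% were lower in every shared cluster and 5.57% higher. Chil3 and Retnlg were the only members whose median over the clusters passed 1.5-fold, which 1.07% of genes did downward and 0.896% upward.

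In Mll4SI granulocyte-like cells, Retnlg was the gene that differed. It stood at 418 CPM [413.4 to 421.7] against 98.5 CPM in control, 4.24-fold higher (log2 ratio 2.07 [2.05 to 2.12]), and was the only gene of the 10 past 2-fold, where 1.13% of all genes were 2-fold higher and 1.38% 2-fold lower. It was at 503.9 and 373.4 CPM in the Mll4SI hashtags and at 113.0 and 89.8 CPM in the control hashtags. Abca13 was lower, at 334.6 CPM (-0.52 [-0.55 to -0.50]). Camp (63732 CPM, 0.43), Ngp (23139 CPM, 0.31) and Ltf (5880 CPM, 0.19) were higher by less than 2-fold. Lcn2, Chil3, Fcnb, Cd177 and Pglyrp1 lay between -0.02 and 0.09. The median of the 10 was 0.07, against -0.12 over all genes.

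The Mll4SI hashtags gave 4 genes with both values above both control values (Ltf, Camp, Ngp and Retnlg), where 23.5% of all genes did, and 1 below (Abca13), where 53.6% did. The pooled erythroid-like level of this library, in the median over the 10 genes 5.22% of the granulocyte-like level against 0.829% in control, rests on the few rich cells described above. Subtracting it left Retnlg at 1.98 and Abca13 at -0.58.

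The Mll4SI values rest on clusters that control barely held. Retnlg was at 535.7 CPM in cluster 3, 129.8 CPM in cluster 1 and 179.4 CPM in cluster 19, each almost wholly Mll4SI, and at 4110 CPM in Mll4SI cluster 14. In the 5 late clusters shared with control, Retnlg was higher in 4, with log2 ratios up to 1.55, and lower in cluster 14 (4110 against 10252 CPM, -1.32). Its median over these clusters was 1.07, and it alone among the 10 passed 1.5-fold in the median upward, as 4.95% of all genes did, with none downward (5.89% of genes). With the 5 shared granulocyte-like clusters (2, 4, 11, 14 and 18) weighted equally the Retnlg ratio was -1.21, and without the clusters over 80% from 1 library it was 0.58. Without cluster 14 it was 2.21. Abca13 was lower in 5 of 5 shared clusters (-0.91 to -0.22), as were Cd177 (-0.51 to -0.12) and Pglyrp1 (-0.34 to -0.20), where 7.63% of all genes were lower in every one. Camp was higher in 5 of 5 (0.04 to 0.70), where 6.99% of all genes were.

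In Mll3/4SI granulocyte-like cells all 10 genes had ratios below 0, with a median of -0.42 against 0.01 over all genes. Chil3 stood at 2234 CPM [2224 to 2244] against 8118 CPM in control (log2 ratio -1.86 [-1.87 to -1.85]). It was the only gene of the 10 that was 2-fold lower, where 0.898% of all genes were, and none was 2-fold higher, where 2.63% were. Abca13 (242.5 CPM, -0.98) and Ltf (2777 CPM, -0.89) were next. Cd177 was at 390.1 CPM (-0.60), Fcnb at 388.1 CPM (-0.47), Lcn2 at 5908 CPM (-0.38), Pglyrp1 at 954.6 CPM (-0.30) and Camp at 40774 CPM (-0.21). Ngp (17778 CPM) and Retnlg (93.4 CPM) were both at -0.07.

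The Mll3/4SI hashtags differed from each other. Chil3 was at 3292 CPM in Hashtag1 and 1430 CPM in Hashtag2 cells, and Abca13 at 360.1 and 153.5 CPM. Even so, 7 of 10 genes had both values below both control values (Ltf, Lcn2, Chil3, Fcnb, Cd177, Pglyrp1 and Abca13), where 26.9% of all genes did, and none above, where 25.6% did. Summed markers of some other cell types also differed between Mll3/4SI and control, and these sums were not split by hashtag. In granulocyte-like cells the 15 HSC/MPP markers summed to 327.8 CPM in Mll3/4SI and 112.7 CPM in control, the 10 monocyte markers to 296.2 and 60.0 CPM and the 8 basophil and mast cell markers to 265.5 and 112.9 CPM, with every listed marker of the 3 lists counted in both. Of the other lists, megakaryocyte markers were higher (44.2 and 27.5 CPM). Dendritic (50.1 and 46.9 CPM) and erythroid markers (23.2 and 22.9 CPM) were close to control. B-lymphoid (19.6 and 38.6 CPM), T/NK (15.8 and 41.6 CPM) and eosinophil markers (3.98 and 10.0 CPM) were lower. The part of these markers in the result was not tested.

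Within shared late clusters Chil3 was lower and Retnlg higher in Mll3/4SI, the directions given above for Mll3SI, with which it shares the control cells. A shared cluster is not a matched cell state. In cluster 0 the Gr1 antibody made up a median 25.4% of antibody UMIs in Mll3/4SI and 46.7% in control. In the 7 shared late clusters Chil3 was lower in 7 of 7 (log2 ratios -1.38 to -0.87) and Retnlg higher in 7 of 7 (0.42 to 1.65). These were the same clusters as for Mll3SI, and cluster 14, with 44 Mll3/4SI cells, was again left out. In cluster 0 Chil3 was at 6238 CPM against 11605 CPM, and Retnlg at 148.6 against 49.98 CPM. Ltf (-0.77 to -0.03), Camp (-0.29 to -0.11), Lcn2 (-0.57 to -0.16) and Pglyrp1 (-0.48 to -0.32) were lower in all 7 as well. Of all genes 7.74% were lower and 6.31% higher in every shared cluster, and Chil3 and Retnlg alone among the 10 passed 1.5-fold in the median (1.69% of genes downward, 2.89% upward). Abca13 was level with control in these clusters (median 0.00, -0.31 to 0.35).

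**Figure D4:**
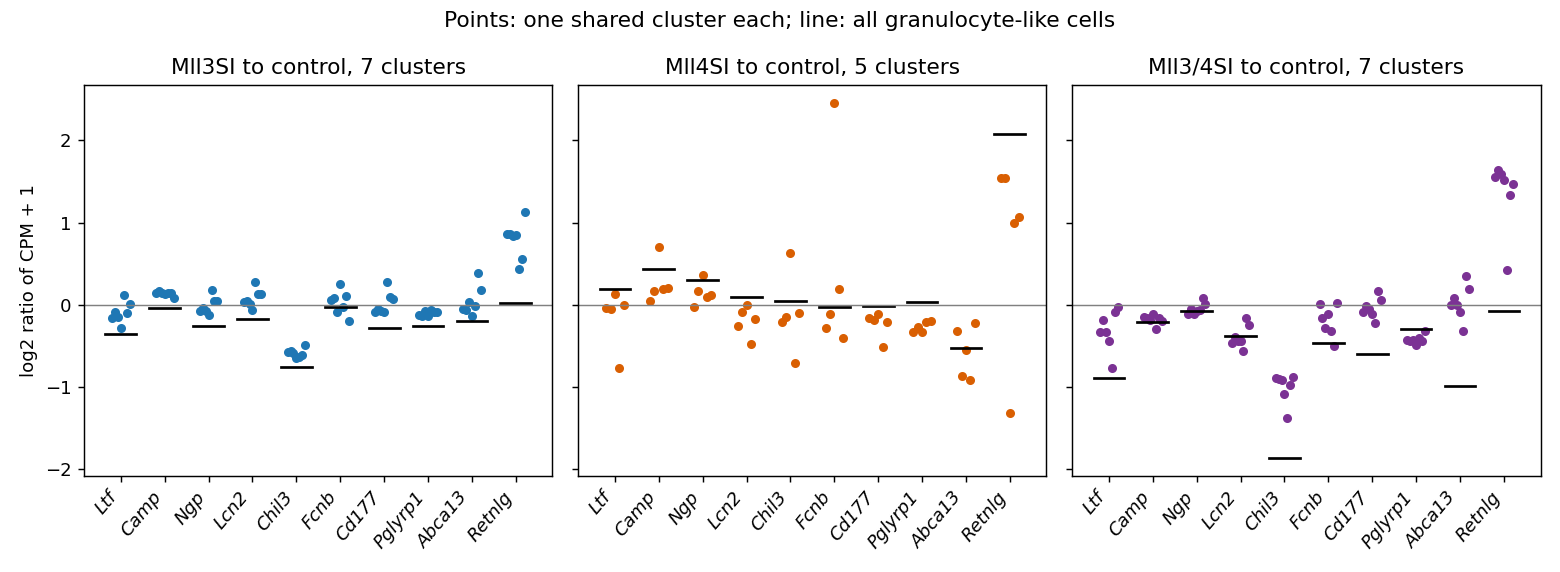
Log2 ratio of CPM + 1 to control for each gene in each shared late cluster (points) and over all granulocyte-like cells (black lines), for 3 libraries. In Mll3SI and Mll3/4SI, Chil3 lies below 0 and Retnlg above 0 in all 7 clusters, and for Abca13 in Mll3/4SI the line (-0.98) lies below all 7 points.

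The Mll3/4SI library held a granulocyte-like population with a split pattern of these genes. Cluster 12 held 1077 cells, 1076 of them from Mll3/4SI, and was compared with the 719 Mll3/4SI cells of cluster 0. None of the 10 genes was used to form either cluster. Chil3 was at 180.1 CPM in cluster 12 and 6238 CPM in cluster 0, 34.6-fold lower [33.5 to 35.8]. Abca13 was at 17.1 against 677.4 CPM, 39.6-fold lower [35.6 to 44.1], and Retnlg at 12.7 against 148.6 CPM, 11.7-fold lower [10.3 to 13.3]. Ltf was at 2019 against 5749 CPM (2.85-fold lower) and Cd177 at 381.3 against 811.7 CPM (2.13-fold lower).

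Camp, Ngp, Lcn2 and Pglyrp1 were retained in cluster 12. Camp was at 68288 CPM against 61621 CPM in cluster 0, Ngp at 30208 against 24236 CPM, Lcn2 at 9830 against 7380 CPM and Pglyrp1 at 1621 against 1137 CPM, all 1.11 to 1.43 times the cluster 0 level. Fcnb was at 389.1 against 601.1 CPM. Thus 5 of 10 genes were at least 2-fold lower in cluster 12, where 5.46% of 10595 genes were, and none was 2-fold higher, where 1.90% were.

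**Figure D5:**
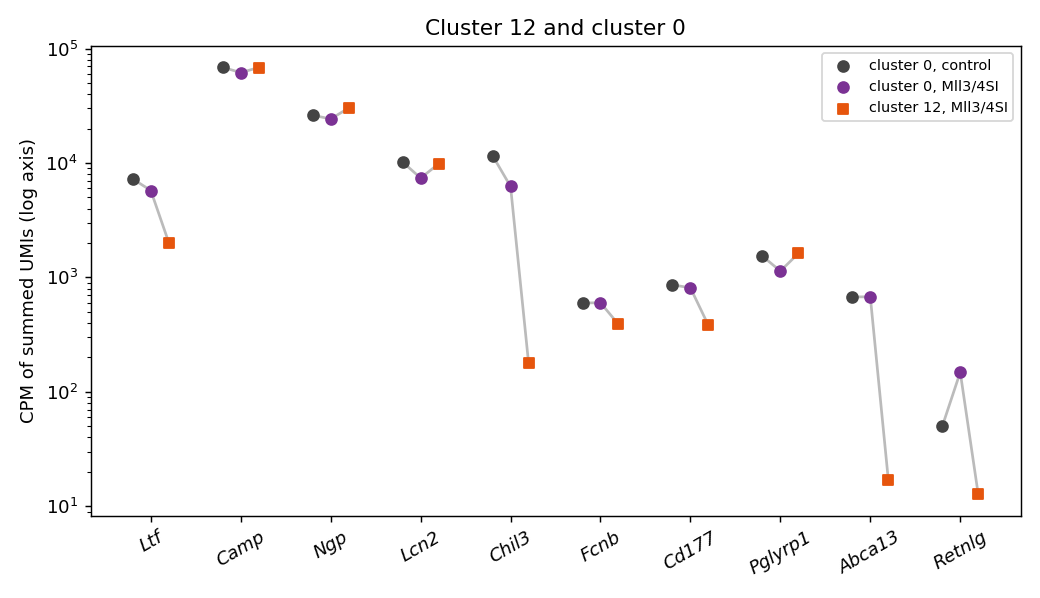
CPM (log axis) of each gene in control cluster 0 (dark grey), Mll3/4SI cluster 0 (purple) and Mll3/4SI cluster 12 (orange squares). Chil3, Abca13 and Retnlg drop in cluster 12 while Camp, Ngp, Lcn2 and Pglyrp1 do not.

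The same split was seen cell by cell. With each cell thinned to 3000 UMIs, 13.9% of cluster 12 cells carried a Chil3 UMI [11.8 to 16.1], against 99.9% of the Mll3/4SI cells of cluster 0. Before thinning the shares were 38.5% and 100%. For Abca13 the thinned shares were 3.91% and 83.3%, for Retnlg 3.07% and 34.1%, and for Ltf 63.9% and 98.9%. Camp was found in 99.1% and 100% of cells. In Mll3/4SI erythroid-like cells, thinned in the same way, 4.07% carried a Chil3 UMI, and 0 of 123 cells carried an Abca13 UMI, for which the exact interval reaches 2.95% of cells with a UMI. Median depths were 18358 UMIs in cluster 12, 14575 in cluster 0 (all libraries) and 21234 in the erythroid-like cells.

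The split was seen in both hashtags, except that Cd177 passed 2-fold in 1 of them. Cluster 12 made up 10.1% of the Hashtag1 and 20.4% of the Hashtag2 cells of Mll3/4SI. Chil3 was at 117 CPM in cluster 12 against 6212 CPM in cluster 0 among Hashtag1 cells, and at 136.3 against 6446 CPM among Hashtag2 cells. Abca13 was at 17.4 against 675.2 CPM and at 13.6 against 695.6 CPM. Retnlg was 12.6-fold and 13.4-fold lower in cluster 12 and Ltf 2.77-fold and 2.85-fold lower, in Hashtag1 and Hashtag2 cells, whereas Cd177 was 1.63-fold lower in Hashtag1 and 2.46-fold lower in Hashtag2 cells. Cluster 21 carried a like pattern in its 360 Mll3/4SI cells, with Chil3 at 276.3 CPM, Abca13 at 35.6 CPM, Camp at 51153 CPM and Ngp at 25714 CPM. Without clusters 12 and 21 the granulocyte-like log2 ratio of Mll3/4SI to control was -1.40 for Chil3, -0.52 for Abca13 and 0.34 for Retnlg.

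Other neutrophil genes split in cluster 12 too. In the list named gelatinase granule and late surface, Ly6g was at 7.14 CPM against 131.0 CPM in Mll3/4SI cluster 0. Mmp9 was at 6.57 against 54.2 CPM, Olfm4 at 8.66 against 81.3 CPM and Mmp8 at 0.378 against 11.9 CPM. Hp (1305 against 863.7 CPM) and Itgam (432.9 against 504.2 CPM) were not 2-fold apart. Stfa2l1, a stefin of a multigene family whose members can share reads, was at 233.2 against 0.647 CPM. The factor gene Cebpe was at 598.8 against 568.3 CPM. Primary granule genes were higher, Elane at 327.2 against 136.7 CPM and Prtn3 at 473.9 against 122.7 CPM.

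The Gr1 share of the antibody counts was lower as well. The Gr1 antibody, which binds Ly6G and Ly6C, made up a median 2.33% of the antibody UMIs of cluster 12 cells, 25.4% of those of Mll3/4SI cluster 0 and 46.7% of those of control cluster 0. CD11b, the product of Itgam, made up 33.4%, 22.4% and 19.6%. These are shares of a common total without the hashtags, so a lower Gr1 share by itself raises the CD11b share. Antibody amounts per cell were not computed. Over all granulocyte-like cells control had a median Gr1 share of 33.0%, and Mll3SI, Mll4SI and Mll3/4SI had 28.2, 23.3 and 3.87%.

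Cells of low Gr1 held different levels of these genes in different libraries. Granulocyte-like cells were divided at the pooled quartiles of the Gr1 share. The lowest quartile held 57.2% of the Mll3/4SI and 19.2% of the control granulocyte-like cells. In that quartile Camp was at 29167 CPM in Mll3/4SI and 2869 CPM in control, Ngp at 13122 and 1010 CPM, Lcn2 at 4347 and 415.4 CPM and Ltf at 1010 and 201.0 CPM, while Chil3 was at 353.5 and 502.7 CPM and Abca13 at 37.5 and 69.2 CPM. In the quartile with the most Gr1, Chil3 was at 5600 against 10928 CPM and Retnlg at 612.1 against 251.0 CPM, and the median log2 ratio of the 10 genes was -0.19. Cells of low Gr1 came from different clusters, since the median share was 2.33% in the late cluster 12, almost wholly Mll3/4SI, and 2.43% in the control cells of cluster 4, rich in primary granule genes. A split by CD11b gave the opposite direction. In the quartile with the least CD11b all 10 genes were 2-fold lower in Mll3/4SI than in control (median log2 ratio -1.90), where 2.9% of all genes were 2-fold lower and 4.34% higher. In the quartile with the least Gr1, 7 of the 10 were 2-fold higher and none lower (median 2.31), where 5.66% of all genes were higher and 3.15% lower. This was not particular to Mll3/4SI. In Mll4SI 7 of the 10 were also 2-fold higher than control in that quartile and none lower (median 2.27). Mll3SI went the other way, with 6 of the 10 lower and none higher (median -1.16). For Mll4SI and Mll3SI the shares of all genes were not computed.

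The related gene lists were described in the same granulocyte-like cells. Of all genes there, 0.311% were 2-fold lower and 0.225% higher in Mll3SI. The shares were 1.38% lower and 1.13% higher in Mll4SI, and 0.898% lower and 2.63% higher in Mll3/4SI. Of 8 primary granule genes none was 2-fold apart from control in Mll3SI (median log2 ratio 0.47) or Mll3/4SI (0.02), and 1 was lower in Mll4SI (median -0.78): Cst7, a cysteine protease inhibitor, at -1.02. Of the 12 genes in the list named gelatinase granule and late surface, Mll3/4SI had 5 that were 2-fold lower (Ly6g -2.09, Mmp9 -1.44, Olfm4 -1.26, Ceacam10 -1.17 and Adam8 -1.03) and 1 higher (Itgb2l 1.12), with a median of -0.63. Mll4SI had 2 higher (the collagenase Mmp8 at 2.26 and the gelatinase Mmp9 at 1.18) and a median of 0.28, and Mll3SI had 1 lower (Mmp8 at -1.04) and a median of -0.14.

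Of 10 late neutrophil genes 8 were measured. The chemokine receptor gene Cxcr2 was 2-fold higher in Mll4SI (1.29). In Mll3/4SI Stfa2l1 was higher (5.46) and Mmp25, a membrane-bound metalloproteinase gene, lower (-1.39), and no gene of the list passed 2-fold in Mll3SI. The list's median was -0.28 for Mll3SI, 0.30 for Mll4SI and 0.13 for Mll3/4SI. Of 12 granulocyte transcription factor genes 1 passed 2-fold, Irf8, a factor of monocytes, at 1.86 in Mll3/4SI (40.9 against 10.5 CPM). Cebpe, the gene of C/EBP epsilon, lay between 392.2 CPM (Mll3/4SI) and 488 CPM (control).

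The genes most like the 10 were found by the correlation of their log2 levels with the mean standardized level of the 10, over the 42 cluster and library units of granulocyte-like and monocyte-like cells. Igf2r (Pearson's r 0.990), Ly75 (0.989), Gsn (0.987), Mapk13 (0.986) and Megf9 (0.986) came first, followed by Orm1, Tnfsf13b, Rhou, 4930438A08Rik and Ppp1r42 down to 0.983. The units share libraries and depth, so these values are a description.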

How the data were processed

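Gene and antibody counts were deposited by the authors as UMI counts per feature and cell barcode for 32285 genes and 15 antibodies (2 of them hashtags), made with Cell Ranger 7.1.0 on mm10, per the submitters' processing notes. No barcode had fewer than 500 gene UMIs. Cells were kept with at least 500 genes, 1000 gene UMIs and at most 10% mitochondrial UMIs, and doublets (Scrublet, top 0.8% per 1000 cells) were removed: 409, 594, 1001 and 411 cells of control, Mll3SI, Mll4SI and Mll3/4SI. Both hashtags were still above their thresholds in 2.28 to 5.58% of kept cells.

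Python 3.11.15 was used with scanpy 1.11.5, leidenalg 0.10.2 and scipy 1.17.1. Libraries were clustered jointly (2000 variable genes, 30 principal components, 15 neighbours, Leiden resolution 1) without the 10 genes, the markers and the related lists. A cluster took a class name with at least 3 of its markers at a log2 fold of at least 1 (10 CPM added), a lead of 2 over the next class, and no other class with more markers in the top 10 genes (50 CPM added). These class names are not the study's own, which may differ. The members, lists and naming rule were chosen with earlier results of these data known.

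UMIs were summed per class and library and given as CPM. Differences are log2 ratios of CPM + 1, over genes with a mean of at least 1 CPM, and 2-fold is the size used for counts, since no test was possible. Intervals are exact Poisson or Clopper-Pearson at 95%, and they do not cover the spread between animals. Scripts were tested on simulated data. Named genes were the 10 members, related genes past 2-fold, and the 10 genes most correlated with the members; others in the cluster 12 comparison were chosen after their values were seen. Coordinates are from GENCODE M21 (GRCm38), matched by Ensembl ID, and promoters from RefSeq GRCm38.p6. Alternatives were 14 planned and 4 added after seeing the data.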

Additional observations from a re-analysis of the deposited data

How the results depend on the processing

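The median log2 ratio of the 10 genes in granulocyte-like cells was -0.23 (Mll3SI), 0.07 (Mll4SI) and -0.42 (Mll3/4SI). In Mll3SI it was -0.27 without doublet removal, -0.21 when scaled UMIs were averaged over cells, 0.0095 with equal weight for shared clusters, -0.34 and -0.12 in Hashtag1 and Hashtag2 cells, -0.20 with clusters 13 and 17 and -0.069 without the primary granule clusters (4, 11 and 15), and 1 gene was lower at 1.5-fold. In Mll4SI it was 0.046 without doublet removal, 0.10 at Leiden resolution 2, 0.063 with the class of the nearest control cells, 0.22 with median-of-ratios scaling, 0.037 as a mean over cells, 0.013 after subtracting the erythroid-like level, -0.12 with equal weight for shared clusters, -1.33 without clusters over 80% from 1 library, -0.028 and 0.16 in Hashtag1 and Hashtag2 cells, 0.064 without cells above both hashtag thresholds, 0.056 with clusters 13 and 17, -0.18 without the primary granule clusters and 0.076 without cluster 14. There, 0 genes were 2-fold higher and 1 lower (Retnlg, -1.21, reversed from 2.07) with equal weight for shared clusters, and 0 higher and 7 lower without clusters over 80% from 1 library, which leaves few late Mll4SI cells. In Mll3/4SI the median was -0.52 at Leiden resolution 2, -0.24 with the class of the nearest control cells, -0.47 with median-of-ratios scaling, -0.56 as a mean over cells, -0.16 with equal weight for shared clusters, -0.078 without clusters over 80% from 1 library, -0.28 and -0.62 in Hashtag1 and Hashtag2 cells, -0.44 without cells above both hashtag thresholds, -0.30 without the primary granule clusters and -0.60 without clusters 12 and 21. There, 3 genes were 2-fold lower at Leiden resolution 2 and in Hashtag2 cells, 2 with median-of-ratios scaling, 4 at 1.5-fold, and 0 (with 1 higher) with equal weight for shared clusters or without clusters over 80% from 1 library. For the counts of genes under these alternative settings, the share of all genes past the same threshold was not computed. The settings with clusters 13 and 17, without the primary granule clusters, without clusters 12 and 21 and without cluster 14 were chosen after seeing the data. Chil3 in Mll3/4SI was below control under 17 of 17 alternatives (-2.42 to -0.91), and Chil3 in Mll3SI under 17 of 17 (-0.93 to -0.56). No paired analysis was possible because each group has 1 library. The cause of these shifts was not tested.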
